A study of Mus musculus with 21 samples.

Results

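Gene expression was compared between FVF+ and FVF- cells of the mouse embryonic pancreas at E14.5, on 6 of the 21 arrays of the series. FVF, the Foxa2-Venus fusion, joins a fluorescent protein to Foxa2, which is a forkhead factor active in endoderm, and cells were sorted by flow cytometry with or without it. The members were every array whose title gave E14.5: 3 of FVF+ cells and 3 of FVF- cells, each labelled pancreas and a mixed C57-Bl6/SV129/CD1 background. Both groups share this background and come from pancreata sorted by the fusion, and no group in the samples used here lacks it. The labels give neither the copy number of the allele nor how many embryos were pooled for an array. The remaining 15 arrays cover E12.5, E13.5 and E15.5 in the same sorts. All 19296 genes with a probe set of a single symbol were tested, and values are log2 signals, on which 1 unit is a 2-fold difference. The labels do not say whether replicates came from separate litters or sorts, so p-values measure only the spread between these arrays.

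The pancreas forms as an epithelial bud of foregut endoderm that grows and branches inside a coat of mesenchyme. Around the stage sampled here, in what is called the secondary transition, cells at the tips of the branches turn into acinar cells, which make digestive enzymes, and cells of the trunk that switch on the transcription factor Neurog3 leave the epithelium to become hormone-producing islet cells. Foxa2 marks the endodermal epithelium, whereas the mesenchyme, vessels, nerves and blood cells around it do not descend from endoderm. In such bulk samples, fewer cells of a type and less RNA per cell cannot be told apart.

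Foxa2 itself was the first check of the labels. It was at 8.48, 8.05 and 8.89 in FVF- replicates 1 to 3 and at 11.26, 11.51 and 11.17 in FVF+ replicates 1 to 3. Every FVF+ array was above every FVF- array, and the difference of 2.84 ± 0.18 log2 units (moderated standard error, SE) was called by limma at an adjusted p of 4.1e-10. Every SE rests on a spread estimated from all 21 arrays. Groups had 3 arrays at E14.5 and 2 or 3 on the other days. The epithelial markers Epcam and Cdh1 were higher in FVF+ cells, and the defining markers of mesenchyme (Pdgfra), endothelium (Cdh5) and macrophages (Csf1r) were higher in FVF- cells, as given below, so the labelled fractions carried the markers of epithelium and of the remaining pancreas.

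Some arrays stood apart from the others of their group. FVF- replicate 3 had more of the epithelial transcripts: the mean of the 34 epithelial genes was 9.20 there, against 8.55 and 8.13 in FVF- replicates 1 and 2 and 8.05 to 8.77 on the 7 FVF- arrays of other days. It was the highest of the 3 FVF- arrays in 30 of these 34 genes (88.2%), against 25.6% of all genes. The mean of the 18 progenitor factors was 9.21 against 8.51 and 8.30. FVF+ replicate 2 had more endothelial transcripts, with a mean over 21 genes of 8.90 against 8.23 and 8.29, and was the highest FVF+ array in 18 of them (85.7%, against 45.2% of all genes). It was also the lowest FVF+ array in 24 of 30 cell cycle genes (80.0%, against 34.4% of all genes). FVF+ replicate 3 was lowest in connective tissue genes, with a mean over 36 genes of 8.72 against 9.24 and 9.15. FVF- replicate 1 and FVF+ replicate 2 deviated from their groups together: over all genes their deviations correlated at 0.58, and 48 genes were lower by 1 log2 unit or more in both, of 189 such genes in FVF- replicate 1 and 129 in FVF+ replicate 2. That correlation was the largest of all pairs across the sorts. The next was 0.49, for replicates 3, and the lowest -0.54, for FVF- replicate 1 with FVF+ replicate 3. Deviations within a group cancel, so these correlations depend on one another. What set these arrays apart was not tested.

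**Figure D1:**
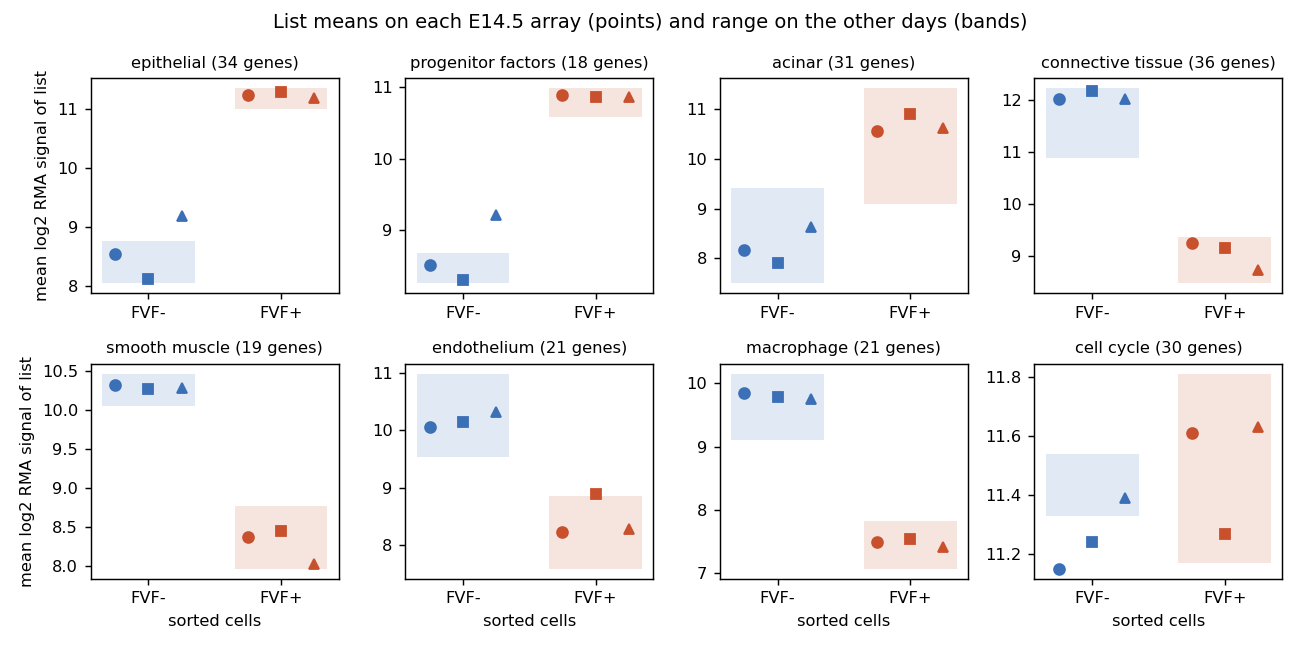
Mean log2 RMA signal of 8 gene lists (y axis) on the 3 FVF- arrays (blue) and the 3 FVF+ arrays (red) of E14.5, with circles, squares and triangles for replicates 1, 2 and 3; the shaded bands span the lowest to the highest array of the other days in the same sort. FVF- replicate 3 lies above the band for epithelial genes (9.20) and progenitor factors, and FVF+ replicate 2 lies above the others in endothelial genes (8.90) and below them in cell cycle genes (11.27).

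Close to every other gene differed between the sorts at this day. Of 19296 genes, 8604 were called (44.6%), 4454 higher in FVF+ (23.1%) and 4150 lower (21.5%). The differences of 2780 called genes (14.4%) were at least 2-fold, 1244 higher (6.45%) and 1536 lower (7.96%). The arrays of the sorts did not overlap in 4535 genes that were higher in FVF+ (23.5%) and 4713 that were lower (24.4%). The median difference over all genes was 0.00. These shares are the background for the counts of each gene list below.

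The 15 largest differences toward FVF+ included islet factors and products as well as exocrine and liver-type genes. Neurod1, a basic helix-loop-helix factor of differentiating islet cells, was at 5.92, 5.87 and 6.37 in FVF- and at 12.10, 11.73 and 12.00 in FVF+ cells. Its FVF- values were close to one another and far from those of FVF+, and the difference was 5.89 ± 0.26 (limma adjusted p = 1.2e-11). Iapp, which encodes the islet peptide amylin, followed with 5.78 ± 0.35, then Cltrn, which encodes collectrin, with 5.51 ± 0.30, Scgn, a calcium-binding protein of secretory cells, with 5.44 ± 0.31, and Serpini2, a serpin of the exocrine pancreas, with 5.27 ± 0.45, or 5.94 without FVF- replicate 3. The others of the 15 largest were Dbpht2, Rfx6, Rbp4, Ugt2b34, Neurog3, Try10, Serpina1c, Pyy, Chgb and Fam183b, with differences from 4.65 to 4.95. Cltrn was at 6.28, 5.49 and 6.47 in FVF- and at 11.59, 11.77 and 11.41 in FVF+ cells, with the FVF- arrays further apart than the FVF+ arrays. All of these genes were chosen for size and for arrays that do not overlap.

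The 15 largest differences toward FVF- included genes of red blood cells, of mast cells and of connective tissue. Hbb-y, an embryonic beta-like globin, was at 13.15, 13.14 and 14.11 in FVF- and at 7.85, 7.31 and 7.76 in FVF+ cells, a difference of -5.83 ± 0.67 (limma adjusted p = 8.6e-07). Globin genes are close copies of one another, so the share of each in a probe set's signal is uncertain. Lrrc17, which encodes a secreted leucine-rich repeat protein, differed by -4.59 ± 0.26, Cpa3, the carboxypeptidase of mast cells, by -4.57 ± 0.37, and Osr2, a zinc finger factor of mesenchyme, by -4.51 ± 0.27. The other 11 were Rtl3, Hba-x, Lum, Alas2, Des, Tgfbi, Pdgfra, Ccdc80, Agtr2, Ddr2 and Mmp2, with differences from -4.46 to -4.19. Lum, Tgfbi, Ccdc80, Ddr2 and Mmp2 encode matrix proteins, a collagen receptor and a matrix protease of connective tissue.

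**Figure D2:**
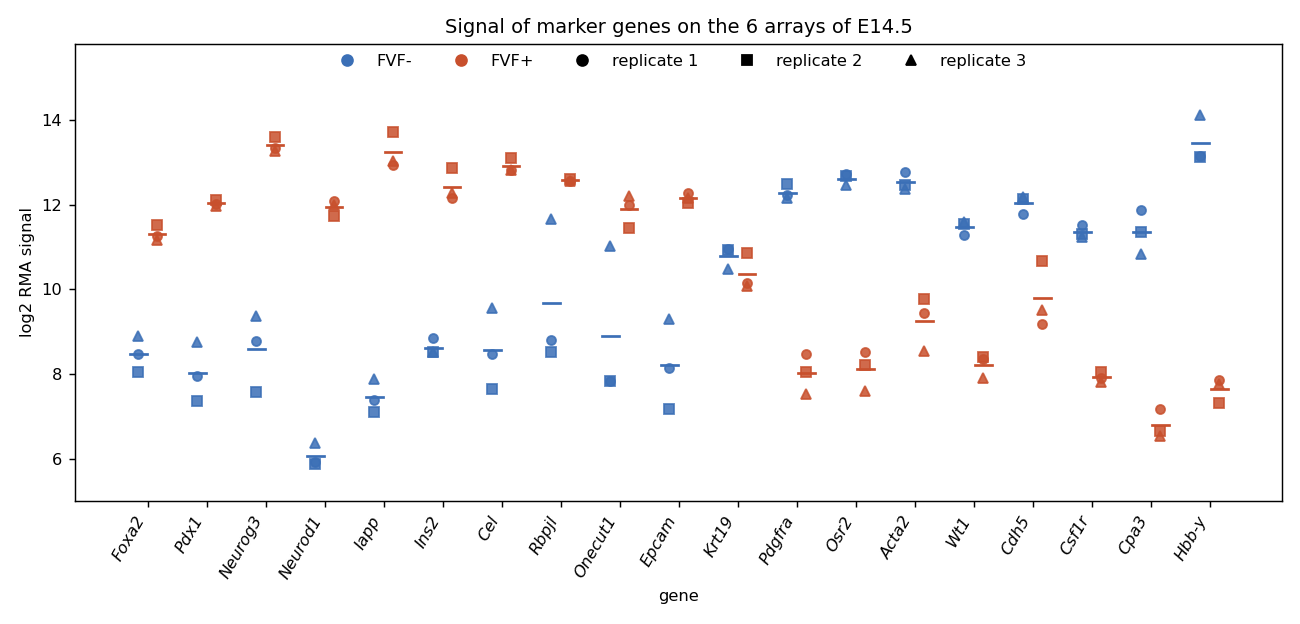
Log2 RMA signal (y axis) of 19 marker genes (x axis) on the 3 FVF- arrays (blue) and the 3 FVF+ arrays (red) of E14.5; symbols are replicates and short lines group means. Endocrine, acinar and epithelial genes lie higher in FVF+, mesenchyme, vessel and blood genes higher in FVF-, Krt19 overlaps between the sorts, and FVF- replicate 3 (blue triangles) lies between the groups for Rbpjl (11.67) and Onecut1 (11.02).

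Transcription factors of the pancreatic progenitor were higher in FVF+ cells with few exceptions. Of 18 measured, 15 were called higher and 0 lower, with a median of 2.59 against 0.00 over all genes. Pdx1, without which no pancreas forms, was at 7.95, 7.37 and 8.76 in FVF- and at 12.02, 12.11 and 11.97 in FVF+ cells, a difference of 4.01 ± 0.26 (limma adjusted p = 6.2e-10). Nkx2-2, which islet cells also need, was higher by 4.02 ± 0.35, Foxa3, a paralog of Foxa2, by 3.57 ± 0.16 and Prox1, a homeobox factor of endodermal buds, by 3.4 ± 0.37. Sox9, a factor of bipotent trunk cells, was higher by 3.21 ± 0.24, Ptf1a, which acinar cells keep, by 3.18 ± 0.29, Nkx6-1 by 3.08 ± 0.26, and Hnf4a, a nuclear receptor of endodermal epithelium, by 3.07 ± 0.17. Onecut1, a cut-homeodomain factor that acts ahead of Neurog3, showed the least even FVF- group, with 7.83, 7.83 and 11.02 against 12.00, 11.46 and 12.21 in FVF+ cells (3.00 ± 0.54, limma adjusted p = 1.5e-04). Its FVF- replicate 3 lay nearer to the FVF+ arrays than to its own group, and without it the difference was 4.06. Prox1 and Nkx2-2 likewise differed by 4.13 and 4.72 without that array.

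Of the 3 progenitor factors that were not called, 2 are named here. Foxa1, the other close relative of Foxa2, was at 7.70, 7.63 and 7.60 in FVF- and at 7.85, 7.97 and 7.83 in FVF+ cells. Its arrays did not overlap, but the difference was only 0.24 ± 0.10 (limma adjusted p = 0.063), and it was called after quantile normalization (0.32, adjusted p = 0.00878) and after cyclic loess normalization (0.30, adjusted p = 0.0115). All Foxa1 values lay below the medians of the E14.5 arrays, 8.76 to 8.87, and so low a signal limits what could be seen. Gata6, a zinc finger factor used by both endoderm and mesoderm, was at 12.19, 12.37 and 12.32 in FVF- and at 12.53, 12.38 and 12.51 in FVF+ cells, a difference of 0.18 ± 0.09 (adjusted p = 0.127).

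Factors of endocrine commitment and of islet cell types formed the second group. Of 21 measured, 18 were called higher and 2 lower, with a median of 2.21. Neurog3 was at 8.78, 7.57 and 9.38 in FVF- and at 13.34, 13.61 and 13.28 in FVF+ cells, a difference of 4.83 ± 0.35 (limma adjusted p = 2.2e-09). Rfx6, a winged-helix factor required for most islet cell types, was higher by 4.95 ± 0.33, Pax6 by 4.34 ± 0.32, Pax4, a factor of the beta and delta lineages, by 4.07 ± 0.33, and Insm1, a zinc finger factor of endocrine differentiation, by 2.74 ± 0.23. Isl1, a LIM-homeodomain factor that pancreatic mesenchyme also expresses, was at 9.97, 10.01 and 10.33 in FVF- and 11.51, 11.52 and 11.55 in FVF+ cells (1.42 ± 0.22, adjusted p = 3.0e-05). Mafa, a factor of mature beta cells, was at 8.70, 8.50 and 8.48 in FVF- and at 8.72, 9.49 and 8.90 in FVF+ cells (0.48 ± 0.16, adjusted p = 0.0237). FVF+ replicate 2 was the highest, and without it the difference was 0.25 (adjusted p = 0.167).

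The calls of the 2 endocrine factors that were lower in FVF+ cells lay near the threshold, and neither gene's arrays overlapped between the sorts. Runx1t1, a transcriptional corepressor, was at 11.32, 11.62 and 11.74 in FVF- and at 11.10, 10.91 and 10.99 in FVF+ cells (-0.56 ± 0.17, limma adjusted p = 0.0124), and without FVF- replicate 3 the difference was -0.47 (adjusted p = 0.0567). Sox11, a SoxC factor of differentiating cells, was at 9.47, 9.80 and 9.97 in FVF- and at 9.17, 8.54 and 9.09 in FVF+ cells (-0.81 ± 0.25, adjusted p = 0.0117), with a difference of -0.70 (adjusted p = 0.0501) without FVF- replicate 3 and of -0.62 (adjusted p = 0.0653) without FVF+ replicate 2. Sox4, the related SoxC gene, was at 10.39, 10.72 and 10.68 in FVF- and at 10.72, 10.38 and 10.79 in FVF+ cells, which overlap (0.03 ± 0.18, adjusted p = 0.908). Without FVF- replicate 3 and FVF+ replicate 2, 17 factors of this list were called higher and 0 lower.

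Hormone genes were higher in FVF+ cells without exception: all 11 measured islet and gut hormone genes were called, with a median of 3.81. Ins2, an insulin gene, was at 8.84, 8.51 and 8.52 in FVF- and at 12.16, 12.87 and 12.27 in FVF+ cells, a difference of 3.81 ± 0.23 (limma adjusted p = 2.8e-10). Gcg, the proglucagon gene of alpha cells, was at 9.91, 8.56 and 10.88 in FVF- and at 13.96, 14.34 and 13.90 in FVF+ cells (4.28 ± 0.57, adjusted p = 4.9e-06), with a wider FVF- spread than Ins2 and a difference of 3.67 without FVF- replicate 2. The somatostatin gene Sst of delta cells was at 11.71, 12.94 and 11.82 in FVF+ cells and differed by 3.67 ± 0.24.

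The remaining named hormones were of the same order. Pyy, which encodes peptide YY, was higher by 4.73 ± 0.26, Gast, the gastrin gene, which the fetal pancreas expresses transiently, by 4.18 ± 0.27, Ghrl, the ghrelin gene of epsilon cells, by 4.16 ± 0.23, and Ppy, the pancreatic polypeptide gene, by 3.69 ± 0.25. FVF+ replicate 2 was the highest of the FVF+ arrays in each of these 4 genes and in Ins2, Gcg, Sst and Iapp, and its mean over the 11 hormone genes was 12.49 against 11.92 and 11.90 in the other two. What part the makeup of that library has in the hormone differences was not tested. Every hormone gene was still called without it.

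The secretory machinery of endocrine cells was higher as well. Of 18 granule and prohormone processing genes, 17 were called higher and 0 lower (median 1.98). Chgb, a granin of dense-core granules, was higher by 4.71 ± 0.35, Pcsk1, a prohormone convertase, by 4.60 ± 0.20, Chga by 4.15 ± 0.26 and Slc30a8, the granule zinc transporter, by 3.01 ± 0.17. Pcsk1 was at 7.29, 6.66 and 7.06 in FVF- and at 11.80, 11.60 and 11.41 in FVF+ cells. The one not called was Vgf, a granin-like neuropeptide precursor, at 8.31, 8.20 and 7.97 in FVF- and 8.05, 8.68 and 8.11 in FVF+ cells (0.12 ± 0.14, limma adjusted p = 0.529).

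Of 12 genes of beta-cell glucose sensing and secretion, 11 were called higher and 1 lower (median 2.10). FVF+ replicate 2 was the highest FVF+ array in all 12, as it was in 16 of the 18 granule genes (88.9%) and 25 of the 31 acinar genes (80.6%), against 45.2% of all genes. Abcc8, the sulfonylurea receptor subunit of the ATP-sensitive potassium channel, was higher by 3.60 ± 0.31, and Kcnj11, the pore subunit of the same channel, by 1.73 ± 0.14. Ero1b, an oxidase for disulfide formation, was higher by 2.65 ± 0.16, Glp1r, the receptor of the incretin GLP-1, by 2.47 ± 0.23, Ffar1, a fatty acid receptor, by 2.38 ± 0.20, and G6pc2, an islet glucose-6-phosphatase, by 2.27 ± 0.14. Slc2a2, the glucose transporter of beta cells and of the early pancreatic epithelium, was at 7.46, 6.90 and 7.67 in FVF- and at 9.15, 9.84 and 9.26 in FVF+ cells (2.07 ± 0.23, limma adjusted p = 4.5e-07). The gene called lower was Trpm5, a cation channel of taste and beta cells, at 10.62, 10.50 and 10.25 in FVF- and at 7.69, 8.02 and 7.48 in FVF+ cells (-2.73 ± 0.18, adjusted p = 9.1e-10). All of its FVF- arrays were more than 2 log2 units above all of its FVF+ arrays, opposite to the other 11 genes of the list.

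Of 10 monoamine synthesis, transport and degradation genes, 6 were called higher and 1 lower (median 1.20). Gch1, which makes the cofactor of the hydroxylases, was higher by 3.27 ± 0.18, Ddc, the aromatic amino acid decarboxylase, by 2.29 ± 0.14, Maob, a degrading oxidase, by 2.24 ± 0.17, and Slc18a1, a vesicular transporter, by 1.55 ± 0.11. The second vesicular transporter gene, Slc18a2, was at 8.24, 8.70 and 8.4 in FVF- and at 7.75, 7.62 and 7.77 in FVF+ cells, so it was lower (-0.73 ± 0.13, limma adjusted p = 1.3e-04). Tph1, the serotonin-synthesising hydroxylase (0.09 ± 0.10, adjusted p = 0.518), and Maoa (-0.16 ± 0.12, adjusted p = 0.303) were not called.

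Digestive enzymes and other acinar genes were higher in FVF+ cells. Of 31 measured enzymes and factors, 28 were called higher and 0 lower, with a median of 2.60, and 26 were called higher and 0 lower without FVF- replicate 3 and FVF+ replicate 2. Among the enzymes, Try10, a trypsinogen, was at 6.90, 6.42 and 6.99 in FVF- and at 11.27, 12.12 and 11.40 in FVF+ cells (4.83 ± 0.35, limma adjusted p = 1.9e-09). Trypsinogen genes are near-identical copies, so their probe sets may share signal. Reg1, a lectin-like secreted protein, was at 6.94, 6.65 and 7.12 in FVF- and at 11.42, 11.48 and 11.35 in FVF+ cells (4.51 ± 0.19, adjusted p = 7.2e-12). The groups were far apart in both genes.

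Other acinar enzymes had a range of differences. Cel, the bile salt-dependent lipase, was at 8.47, 7.65 and 9.57 in FVF- and at 12.82, 13.11 and 12.83 in FVF+ cells (4.36 ± 0.34, limma adjusted p = 5.2e-09). Pnliprp1, a lipase-related protein, was higher by 3.37 ± 0.43, Clps, the colipase, by 3.27 ± 0.28, Cpb1, a carboxypeptidase, by 3.18 ± 0.32, and Cela1, an elastase, by 2.95 ± 0.23. Among the called enzymes named here, the smallest differences were those of Ctrb1, a chymotrypsinogen (2.37 ± 0.39), and of Cpa1, a carboxypeptidase that also marks early multipotent tips (1.73 ± 0.23). Cpa1 was at 13.25, 12.55 and 13.74 in FVF- and at 14.87, 14.94 and 14.91 in FVF+ cells, high in both sorts. In FVF+ cells Ctrb1 was at 14.80, 14.90 and 14.92, and Clps, with a larger difference, at 14.87, 14.93 and 14.87. The highest signal of the series was 15.31. Whether nearness to it narrowed these differences was not tested. Cuzd1 (0.13 ± 0.10, adjusted p = 0.313) and Dmbt1 (0.06 ± 0.11, adjusted p = 0.706) were not called.

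The acinar transcription factors were higher as well. Bhlha15, which organises the secretory apparatus of acinar cells, was at 8.12, 7.18 and 8.30 in FVF- and at 12.12, 12.48 and 12.03 in FVF+ cells (4.34 ± 0.27, limma adjusted p = 3.4e-10). Rbpjl, the acinar partner of Ptf1a, was at 8.81, 8.52 and 11.67 in FVF- and at 12.57, 12.62 and 12.55 in FVF+ cells (2.91 ± 0.52, adjusted p = 1.4e-04). Nr5a2, a nuclear receptor that activates acinar genes, was at 8.37, 8.36 and 11.35 in FVF- and at 12.61, 12.08 and 12.56 in FVF+ cells (3.06 ± 0.50, adjusted p = 5.6e-05). In Rbpjl and Nr5a2, as in Onecut1, FVF- replicate 3 was well above the other FVF- arrays, and without it the differences of Rbpjl and Nr5a2 were 3.92 and 4.05, and that of Pnliprp1 was 3.96. It was the highest of the FVF- arrays in 21 of the 31 acinar genes.

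Ptf1a and Rbpjl act in a complex that binds a bipartite element made of an E-box and a TC-box, and the windows around the start sites of 3 acinar genes with both letters are shown because these genes moved together. The sequences are RefSeq windows of GRCm38.p6, from 250 bases before to 50 after the annotated start, 5′ to 3′ on the gene's strand, with each E-box (CANNTG) and TC-box (TGGGAA, on either strand) in capitals. The window of Cel is chr2:28563354-28563653 on the minus strand, that of Pnliprp1 chr19:58728637-58728936 on the plus strand and that of Rbpjl chr2:164402944-164403243 on the plus strand.
Cel: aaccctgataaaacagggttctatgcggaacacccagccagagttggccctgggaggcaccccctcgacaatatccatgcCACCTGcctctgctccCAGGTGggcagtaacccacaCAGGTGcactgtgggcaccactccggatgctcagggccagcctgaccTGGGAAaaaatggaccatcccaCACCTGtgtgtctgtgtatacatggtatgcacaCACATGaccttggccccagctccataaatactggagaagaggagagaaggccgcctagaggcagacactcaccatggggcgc
Pnliprp1: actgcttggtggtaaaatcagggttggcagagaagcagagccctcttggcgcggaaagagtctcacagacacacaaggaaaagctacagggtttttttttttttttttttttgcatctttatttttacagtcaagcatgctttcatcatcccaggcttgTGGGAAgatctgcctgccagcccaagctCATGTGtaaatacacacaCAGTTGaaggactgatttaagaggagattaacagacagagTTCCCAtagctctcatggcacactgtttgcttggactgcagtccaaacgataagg
Rbpjl: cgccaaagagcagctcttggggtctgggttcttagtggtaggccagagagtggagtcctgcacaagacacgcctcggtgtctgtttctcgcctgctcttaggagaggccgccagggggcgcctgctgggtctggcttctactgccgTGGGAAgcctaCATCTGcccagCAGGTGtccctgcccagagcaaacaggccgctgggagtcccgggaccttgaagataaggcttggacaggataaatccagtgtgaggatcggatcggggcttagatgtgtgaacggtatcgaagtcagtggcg
These are the 3 anchor genes of the acinar list with the largest differences among those whose window held both motifs. Their windows held 5, 2 and 2 E-boxes and 1, 2 and 1 TC-boxes, with the first TC-box 87, 91 and 104 bases before the start, and the second of Pnliprp1, on the other strand, 5 bases before it. RefSeq windows were found for 24 measured acinar genes, 26 windows in all. Of these, 14 held a TC-box (53.8%, against 25.6% of all 32851 windows), 22 an E-box (84.6% against 72.3%) and 12 both (46.2% against 19.0%). The list includes trypsinogen genes, which are near-identical copies, so its windows may not be independent. How much copies add to these shares was not tested. In the windows of hormone, smooth muscle and liver-type genes the E-box share was 85.7%, 87.5% and 76.2%, and that of the TC-box 28.6%, 25.0% and 28.6%, so E-boxes were as common in the hormone and smooth muscle windows as in the acinar ones. An E-box and a TC-box can share bases, since the first ends and the second begins with TG. Another short motif, the CArG box, was sought in the 16 smooth muscle windows and matched 0 of them (1.63% of all windows). The HNF1 motif matched 0 of the 14 hormone and 0 of the 21 liver-type windows (0.00913% of all windows). A match describes the letters only and does not show binding.

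Ductal genes went both ways. Of 16 measured, 9 were called higher and 5 lower (median 0.57). Muc1, an apical mucin, was at 8.69, 7.41 and 9.55 in FVF- and at 12.84, 12.90 and 12.72 in FVF+ cells (4.27 ± 0.38, limma adjusted p = 3.4e-08). Ambp was higher by 4.23 ± 0.51, Clu, the clusterin gene, by 3.03 ± 0.19 and Vtcn1 by 2.27 ± 0.18. The difference of Ambp was 3.39 without FVF- replicate 2 and 4.96 without FVF- replicate 3. The carbonic anhydrase gene Car2 was at 9.49, 9.25 and 10.11 in FVF- and at 7.11, 7.45 and 7.02 in FVF+ cells (-2.42 ± 0.22, adjusted p = 3.6e-08). Anxa3 (-2.20 ± 0.22), Pkd1, the polycystin-1 gene (-1.15 ± 0.13), and Aqp1, a water channel that vessels also express (-0.84 ± 0.21), were lower too. Cftr, the chloride channel of ducts, was at 5.70, 5.80 and 5.50 in FVF- and at 5.84, 5.80 and 5.85 in FVF+ cells (0.16 ± 0.10, adjusted p = 0.193), which overlap.

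The general epithelial programme was higher in FVF+ cells in 32 of 34 genes, with 0 lower and a median of 2.90. Esrp1, a splicing regulator of epithelia, was at 7.60, 6.96 and 9.12 in FVF- and at 12.22, 12.24 and 12.17 in FVF+ cells (4.32 ± 0.34, limma adjusted p = 6.3e-09). Cldn6 was higher by 4.19 ± 0.36 and Cldn4 by 3.96 ± 0.26, both tight junction claudins, Rab25, a GTPase of apical transport, by 3.99 ± 0.21, Epcam by 3.95 ± 0.33, and Cdh1, E-cadherin, by 3.64 ± 0.34. The simple keratins Krt8 and Krt18 were higher by 3.20 ± 0.17 and 2.83 ± 0.17. FVF+ arrays of Esrp1 lay within 0.07 of one another, while its FVF- arrays spread over more than 2 units, and its difference was 4.93 without FVF- replicate 3.

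Krt19, a keratin used as a ductal marker, was not called. It was at 10.96, 10.94 and 10.48 in FVF- and at 10.16, 10.85 and 10.07 in FVF+ cells, so the arrays overlapped (-0.43 ± 0.24, limma adjusted p = 0.166). Without FVF+ replicate 2 it was called lower in FVF+ (-0.68, adjusted p = 0.0294), as it was with array weights (-0.59, adjusted p = 0.0136). Lgals4, a galectin of gut epithelium, was the other exception (-0.28 ± 0.12, adjusted p = 0.0715), and was called lower without FVF- replicate 1 (-0.39, adjusted p = 0.0218).

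Genes known from liver were divided. Of 22 measured, 11 were called higher, 1 lower and 10 not (median 0.27). Rbp4, the plasma retinol carrier, was at 8.03, 7.17 and 8.30 in FVF- and at 12.62, 13.11 and 12.56 in FVF+ cells (4.93 ± 0.23, limma adjusted p = 1.9e-11). The glucuronosyltransferase gene Ugt2b34 was higher by 4.85 ± 0.39, Cpn1, a carboxypeptidase N subunit, by 4.62 ± 0.44 and Ttr, transthyretin, by 4.44 ± 0.43. Serpina1c, an alpha-1-antitrypsin gene with near-identical copies, differed by 4.79 ± 0.50, and its FVF- arrays were uneven at 8.35, 5.95 and 7.95, with a difference of 4.06 without FVF- replicate 2. Cpn1 differed by 3.85 without that array and by 5.21 without FVF- replicate 3.

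Alb, albumin, was at 6.74, 6.39 and 6.48 in FVF- and at 7.89, 9.05 and 8.35 in FVF+ cells (1.89 ± 0.41, limma adjusted p = 9.6e-04), and Afp, alpha-fetoprotein, was higher by 2.45 ± 0.20. Apoa1 (0.27 ± 0.16, adjusted p = 0.190) and Fgb, a fibrinogen chain (0.28 ± 0.24, adjusted p = 0.396), were not called. Trf, transferrin, was lower in FVF+ by -0.79 ± 0.16. Whether liver tissue reached the sorts was not tested.

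Of 14 regional genes of spleen, stomach and intestine, 3 were called higher, 7 lower and 4 not (median -0.15). Barx1, a factor of stomach mesenchyme, was at 12.59, 12.05 and 12.40 in FVF- and at 8.94, 9.18 and 8.57 in FVF+ cells (-3.45 ± 0.27, limma adjusted p = 7.5e-09). Tlx1, a factor of the spleen, was lower by -3.15 ± 0.25 and Nkx3-2, a factor of splanchnic mesenchyme, by -2.44 ± 0.22. Nkx2-5 (-0.70 ± 0.19) and Sox2, a stomach factor (-0.40 ± 0.10), were lower by less. The genes called higher were Hnf4a, given above, Vil1, the villin gene of brush borders (1.93 ± 0.17), and Tff3 (0.79 ± 0.17). Cdx2, the defining intestinal factor, was not called (0.17 ± 0.11, limma adjusted p = 0.224), nor was Cdh17 (0.06 ± 0.11, adjusted p = 0.739). Their means in FVF- and FVF+ cells were low, at 6.98 and 7.15 for Cdx2 and 6.57 and 6.63 for Cdh17. The medians of the E14.5 arrays were 8.76 to 8.87.

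**Figure D3:**
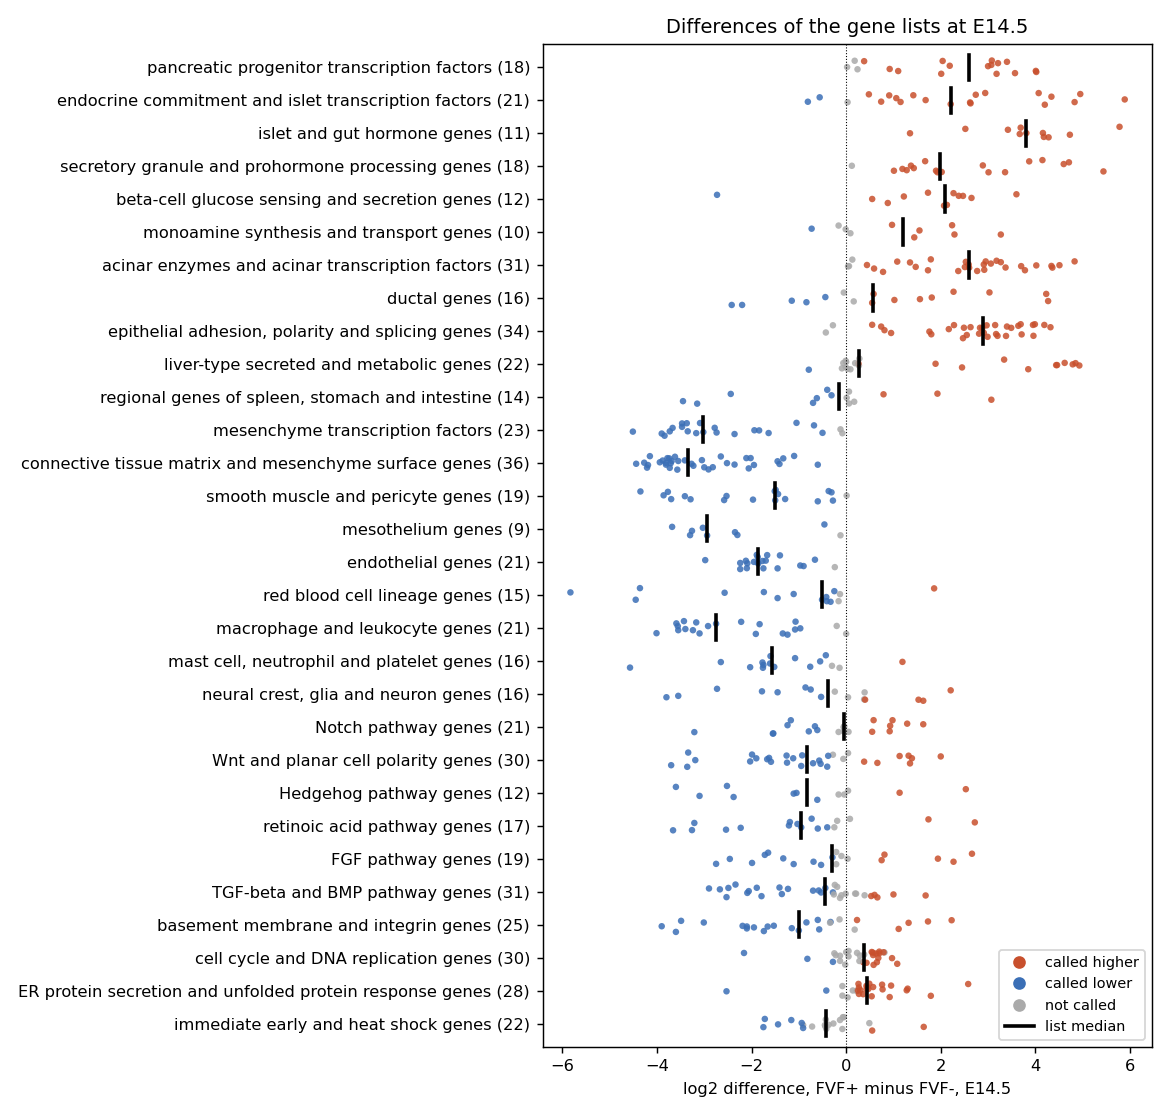
Difference FVF+ minus FVF- at E14.5 in log2 units (x axis) for every measured gene of 30 lists (rows, with the number of genes measured); red and blue points were called higher and lower, grey ones were not called, and black bars are list medians. Hormone genes have the highest median (3.81) and connective tissue genes the lowest (-3.34), while signalling lists hold called genes on both sides.

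Genes of mesenchyme were lower in FVF+ cells almost without exception. Of 23 mesenchyme transcription factors, 21 were called lower in FVF+ and 0 higher (median -3.02). Osr2 was at 12.73, 12.67 and 12.47 in FVF- and at 8.53, 8.21 and 7.59 in FVF+ cells. Tcf21, a factor of visceral mesenchyme, was lower by -3.90 ± 0.24, Prrx1 by -3.84 ± 0.29, Ebf1 by -3.73 ± 0.17, Osr1 by -3.67 ± 0.40 and Zeb1, a repressor of epithelial genes, by -3.17 ± 0.22. Foxf1, a forkhead factor of gut mesenchyme, was at 10.60, 10.26 and 10.29 in FVF- and at 8.53, 8.87 and 8.23 in FVF+ cells (-1.84 ± 0.15, limma adjusted p = 1.4e-08), and Twist1 was lower by -1.05 ± 0.10. Foxf2, the paralog of Foxf1, (-0.08 ± 0.08, adjusted p = 0.451) and Msc (-0.12 ± 0.09, adjusted p = 0.281) were not called.

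All 36 measured connective tissue genes were called lower in FVF+ cells, 35 of them at least 2-fold, with a median of -3.34. Pdgfra, a growth factor receptor of mesenchymal cells, was at 12.22, 12.48 and 12.15 in FVF- and at 8.47, 8.05 and 7.53 in FVF+ cells (-4.27 ± 0.33, limma adjusted p = 5.0e-09). The proteoglycan Lum was at 12.09, 12.31 and 12.03 in FVF- and at 8.32, 7.73 and 7.05 in FVF+ cells (-4.44 ± 0.32), with the FVF- arrays close together and FVF+ replicate 3 lowest. Postn, periostin, was lower by -4.19 ± 0.30, Lox, a collagen crosslinking oxidase, by -4.15 ± 0.32, Col1a1 by -3.69 ± 0.29, Col3a1 by -3.57 ± 0.22 and Dcn, decorin, by -3.27 ± 0.40. Fn1, fibronectin, differed least of the named genes, at 12.60, 13.12 and 12.80 in FVF- and 11.32, 11.68 and 11.29 in FVF+ cells (-1.41 ± 0.14). In FVF+ replicate 3 the mean of this list was 8.72, the lowest of the 6 arrays, as it was for the smooth muscle list at 8.02.

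Contractile and mesothelial genes followed. Of 19 smooth muscle and pericyte genes, 18 were called lower and 0 higher (median -1.51), and of 9 mesothelium genes, 8 were called lower and 0 higher (median -2.94). Des, desmin, was lower by -4.35 ± 0.28, Rgs5, a pericyte marker, by -3.86 ± 0.41, and Kcnj8 and Abcc9, the 2 subunits of the vascular ATP-sensitive potassium channel, by -3.77 ± 0.25 and -3.70 ± 0.29. Acta2, smooth muscle actin, was at 12.78, 12.47 and 12.38 in FVF- and at 9.45, 9.77 and 8.54 in FVF+ cells (-3.29 ± 0.32, limma adjusted p = 9.7e-08), and Tagln was lower by -1.51 ± 0.16. Among mesothelium genes, Upk3b was lower by -3.68 ± 0.25, Lrrn4 by -3.30 ± 0.23, Wt1, the defining mesothelial factor, by -3.26 ± 0.24 and Bnc1 by -3.03 ± 0.19. Synpo2 (0.01 ± 0.17, adjusted p = 0.962) and Msln, mesothelin (-0.12 ± 0.09, adjusted p = 0.296), were not called.

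The 2 forms of the ATP-sensitive potassium channel thus lay on opposite sides of the sort: the beta-cell subunits Abcc8 and Kcnj11 were higher in FVF+ by 3.60 and 1.73, and the vascular subunits Abcc9 and Kcnj8 were lower by -3.70 and -3.77. None of the 4 genes had arrays that overlapped between the sorts. This pairing was noticed after the values were seen.

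Endothelial genes were lower in FVF+ cells in 20 of 21 cases, with 0 higher and a median of -1.86. Cdh5, the cadherin of endothelium, was at 11.78, 12.14 and 12.18 in FVF- and at 9.19, 10.66 and 9.52 in FVF+ cells (-2.24 ± 0.45, limma adjusted p = 4.1e-04). Eng, endoglin, was lower by -2.98 ± 0.37, Lyve1, a hyaluronan receptor of lymphatic vessels and macrophages, by -2.24 ± 0.26, Kdr, a VEGF receptor, by -2.12 ± 0.32 and Pecam1 by -1.95 ± 0.34. FVF+ replicate 2 was the highest FVF+ array in Cdh5, Eng, Kdr and Pecam1 but not in Lyve1, and the part of carried-over endothelial RNA in its values was not tested. Esm1 was not called (-0.24 ± 0.16, adjusted p = 0.249).

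Macrophage and leukocyte genes were lower in FVF+ cells in 19 of 21 cases, with 0 higher and a median of -2.75. Csf1r, the receptor macrophages depend on, was at 11.52, 11.30 and 11.23 in FVF- and at 7.91, 8.04 and 7.82 in FVF+ cells (-3.43 ± 0.25, limma adjusted p = 2.0e-09). Lyz2, lysozyme, was lower by -4.01 ± 0.38, Laptm5 by -3.59 ± 0.21, F13a1 by -3.56 ± 0.29, C1qb, a complement subunit, by -3.55 ± 0.39, Mrc1, the mannose receptor, by -3.4 ± 0.30 and Adgre1 by -3.24 ± 0.19. C1qa, whose product joins the same complex as that of C1qb, was lower by only -1.08 ± 0.25. Cd14 (-0.00 ± 0.11, adjusted p = 0.982) and Cd163 (-0.20 ± 0.08, adjusted p = 0.0612) were not called, though Cd163 was called with array weights (-0.27, adjusted p = 0.00873).

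Red blood cell genes were lower in FVF+ in 12 of 15 cases and higher in 1 (median -0.51). Alas2, the haem synthesis enzyme of erythroid cells, was at 12.16, 11.91 and 12.40 in FVF- and at 7.86, 7.72 and 7.82 in FVF+ cells (-4.36 ± 0.15, limma adjusted p = 1.7e-12), with all FVF+ arrays far below the FVF- range. The embryonic alpha-like globin Hba-x was lower by -4.45 ± 0.48, the anion exchanger gene Slc4a1 by -2.57 ± 0.24 and Hbb-bh1 by -1.74 ± 0.23. Epb42, which encodes a membrane skeleton protein of red cells, went the other way, at 8.0, 7.69 and 8.52 in FVF- and 10.18, 9.61 and 10.01 in FVF+ cells (1.86 ± 0.26, adjusted p = 8.3e-06). Every FVF+ array of Epb42 lay above every FVF- array, opposite to the globins and Alas2.

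Of 16 mast cell, neutrophil and platelet genes, 13 were called lower in FVF+ and 1 higher (median -1.56). Cpa3 was at 11.87, 11.36 and 10.84 in FVF- and at 7.16, 6.66 and 6.54 in FVF+ cells. Pf4, platelet factor 4, was lower by -2.65 ± 0.19, Mpo, myeloperoxidase, by -2.03 ± 0.23, Hdc, which makes histamine, by -1.77 ± 0.16 and S100a8 by -1.76 ± 0.20. Kit, the receptor of stem cell factor, went the other way, at 9.91, 10.12 and 10.12 in FVF- and 11.32, 11.19 and 11.20 in FVF+ cells (1.19 ± 0.10, limma adjusted p = 1.2e-08). Mcpt4 (-0.30 ± 0.17) and Fcer1a (-0.14 ± 0.09), a mast cell protease and a receptor chain, were not called and lay below 6 on every array.

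Of 16 genes of nerves, glia and their neural crest precursors, 8 were called lower and 4 higher (median -0.39). Stmn2, a microtubule regulator of neurons, was lower by -3.80 ± 0.20, Ednrb, an endothelin receptor of neural crest, by -3.55 ± 0.34, Fabp7, a glial fatty acid binding protein, by -2.73 ± 0.36 and Phox2a, an autonomic neuron factor, by -1.78 ± 0.15. Sox10, the defining glial and crest factor, was at 9.78, 9.61 and 9.28 in FVF- and at 8.58, 8.99 and 8.85 in FVF+ cells (-0.75 ± 0.13, limma adjusted p = 9.8e-05). Ret, the signalling receptor of GDNF ligands, was at 9.81, 9.77 and 9.63 in FVF- and at 11.10, 11.57 and 11.13 in FVF+ cells (1.53 ± 0.15, adjusted p = 1.4e-07). Its co-receptor gene Gfra3 was higher by 2.21 ± 0.19, and Erbb3, a neuregulin receptor, by 1.63 ± 0.16.

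In FGF signalling, the ligands that were called lay on the FVF- side, and 3 of the 4 receptors and the co-receptor Klb on the FVF+ side. Of 19 genes measured, 5 were called higher and 10 lower (median -0.29). Fgf10, the mesenchymal ligand that drives growth of the pancreatic epithelium, was at 8.51, 9.49 and 8.96 in FVF- and at 6.68, 6.74 and 6.17 in FVF+ cells (-2.46 ± 0.22, limma adjusted p = 2.8e-08), and Fgf18 was lower by -1.99 ± 0.18. Fgfr2, whose epithelial isoform receives Fgf10, was at 9.29, 9.31 and 10.18 in FVF- and at 11.55, 11.42 and 11.62 in FVF+ cells (1.94 ± 0.25, adjusted p = 3.7e-06). No array of either sort crossed into the range of the other for these genes. The array's probe set does not separate the isoforms of Fgfr2 here.

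The other receptors differed in direction. Klb, the beta-klotho co-receptor, was higher in FVF+ by 2.66 ± 0.15, Fgfr4, which pairs with it, by 2.27 ± 0.28, and Fgfr3 by 0.81 ± 0.23, a call that did not hold in every setting, while Fgfr1, the receptor typical of mesenchyme, was lower by -1.11 ± 0.10. The feedback inhibitors Spry4, Spry1 and Spry2 were lower by -2.75 ± 0.14, -1.72 ± 0.12 and -1.33 ± 0.15. Fgf7, a second mesenchymal ligand of Fgfr2, was not called and low throughout, at 6.52, 6.35 and 6.43 in FVF- and 6.21, 6.43 and 6.37 in FVF+ cells (-0.10 ± 0.10, limma adjusted p = 0.474). Etv4, a transcriptional target of the pathway, was not called either (-0.21 ± 0.13, adjusted p = 0.230).

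Retinoic acid is made from retinol in consecutive steps, by retinol dehydrogenases such as Rdh10 and then by Aldh1a enzymes, and 12 of 17 genes of this pathway were called lower and 2 higher (median -0.95). FVF- replicate 1 was the highest FVF- array in 16 of them (94.1%, against 47.6% of all genes), with a list mean of 10.16 against 9.89 and 9.93 in FVF- replicates 2 and 3 and 9.66 to 9.79 on the other days. Without that array, 10 genes of the list were called lower and 2 higher (median -0.88). What set the array apart was not tested. Aldh1a2, the main enzyme of embryonic mesenchyme, was at 11.81, 11.53 and 11.59 in FVF- and at 8.20, 8.08 and 7.68 in FVF+ cells (-3.66 ± 0.20, limma adjusted p = 8.9e-11). Aldh1a1 went the other way, at 7.43, 7.08 and 7.39 in FVF- and 9.98, 10.31 and 9.78 in FVF+ cells (2.72 ± 0.16, adjusted p = 2.2e-10). Rdh10 was lower by -2.54 ± 0.16. The 2 synthesising enzymes were thus each highest in a different sort, with no overlap.

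On the receiving side, Rarb, a receptor gene and direct target of retinoic acid, was at 11.26, 11.19 and 11.23 in FVF- and at 8.24, 7.90 and 7.92 in FVF+ cells (-3.21 ± 0.12, limma adjusted p = 3.7e-12). Crabp1, a binding protein, was lower by -3.26 ± 0.19 and Cyp26b1, a degrading enzyme, by -0.95 ± 0.14. Rxrg was the one receptor called higher (1.74 ± 0.16), Rxrb was not called (-0.25 ± 0.12, adjusted p = 0.0922) but was called lower without FVF+ replicate 2 (-0.39, adjusted p = 0.00563), and Cyp26a1 was not called (-0.19 ± 0.10, adjusted p = 0.147).

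In the Hedgehog pathway, Ptch1 is both the receptor and a transcriptional target, Hhip a decoy that is likewise induced by the signal, Smo the transducer and Gli factors the effectors. Of 12 measured, 2 were called higher and 7 lower (median -0.83). Ptch1 was at 9.70, 10.12 and 10.14 in FVF- and at 11.09, 11.13 and 11.12 in FVF+ cells (1.13 ± 0.11, limma adjusted p = 7.4e-08), and Hhip at 6.93, 6.96 and 7.4 in FVF- and 9.91, 9.09 and 9.89 in FVF+ cells (2.53 ± 0.24, adjusted p = 5.6e-08). Gli1, also a target, was at 8.72, 9.03 and 8.63 in FVF- and at 7.77, 7.78 and 7.69 in FVF+ cells (-1.05 ± 0.11, adjusted p = 3.5e-07). The inhibitory receptors and Gli1 were therefore apart in opposite directions, without overlap of arrays in any of the 3.

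Gli2 and Gli3 were lower in FVF+ by -2.52 ± 0.20 and -3.10 ± 0.14, the co-receptors Boc and Gas1 by -3.60 ± 0.22 and -2.38 ± 0.15, and Smo by -0.61 ± 0.11. None of the 3 ligand genes was called. Shh differed by 0.04 ± 0.10 (limma adjusted p = 0.804), Ihh by -0.04 ± 0.10 (adjusted p = 0.774) and Dhh by -0.16 ± 0.13 (adjusted p = 0.352).

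**Figure D4:**
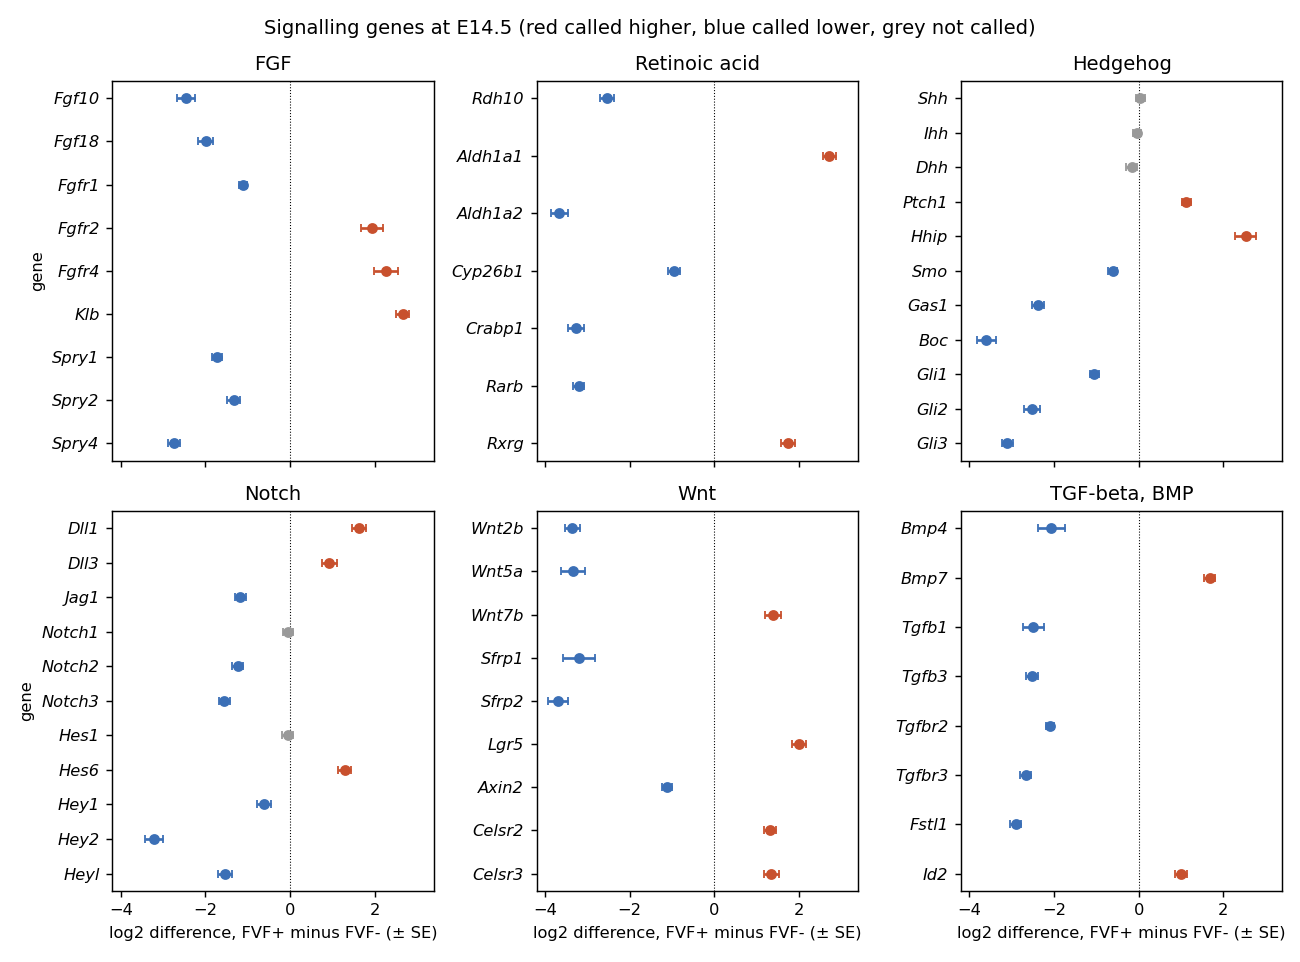
Difference FVF+ minus FVF- at E14.5 in log2 units with its SE (x axis) for named genes (y axis) of 6 signalling pathways; red was called higher, blue lower, grey not called. Fgf10 (-2.46) lies opposite to Fgfr2 (1.94), Aldh1a2 (-3.66) opposite to Aldh1a1 (2.72), and Ptch1 (1.13) and Hhip (2.53) opposite to the Gli genes.

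Notch genes were evenly split, with 7 of 21 called higher and 8 lower (median -0.05). Dll1, the ligand of Neurog3-positive cells, was at 8.73, 8.30 and 9.10 in FVF- and at 10.35, 10.43 and 10.24 in FVF+ cells (1.63 ± 0.17, limma adjusted p = 1.8e-07), Dll3 was higher by 0.93 ± 0.17 and Dner, a Delta-like protein, by 0.98 ± 0.12. Hes6, an antagonist of Hes1 in differentiating cells, was higher by 1.29 ± 0.15. The ligand Jag1 was lower by -1.17 ± 0.12, the receptors Notch2 and Notch3 by -1.24 ± 0.13 and -1.55 ± 0.14, and the targets Hey2, Heyl and Hey1 by -3.21 ± 0.21, -1.54 ± 0.17 and -0.61 ± 0.17.

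Hes1, the main effector in progenitors, was at 10.89, 10.78 and 10.72 in FVF- and at 10.77, 10.63 and 10.84 in FVF+ cells, which overlap (-0.05 ± 0.13, limma adjusted p = 0.808). Notch1 (-0.04 ± 0.12), Jag2 (0.05 ± 0.12) and Hes5 (-0.16 ± 0.11) were not called.

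Wnt and planar cell polarity genes were mostly on the FVF- side, with 7 of 30 called higher and 20 lower (median -0.82). Wnt5a, a mesenchymal ligand of the polarity branch, was at 10.67, 10.88 and 10.86 in FVF- and at 7.66, 7.60 and 7.14 in FVF+ cells (-3.34 ± 0.28, limma adjusted p = 1.8e-08). Wnt2b was lower by -3.36 ± 0.18, and the secreted inhibitors Sfrp2 and Sfrp1 by -3.70 ± 0.23 and -3.19 ± 0.38. The ligand Wnt7b was higher by 1.39 ± 0.18, the polarity cadherins Celsr3 and Celsr2 by 1.35 ± 0.17 and 1.32 ± 0.15, and Lgr5, an R-spondin receptor and Wnt target, by 2.00 ± 0.17. Axin2, another target of the canonical branch, was lower by -1.12 ± 0.11, so these 2 targets differed in direction. Dkk1 was not called (-0.06 ± 0.08, adjusted p = 0.598).

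TGF-beta and BMP genes were called lower in 17 of 31 cases and higher in 5 (median -0.44). The ligands Tgfb3, Tgfb1 and Bmp4 were lower in FVF+ by -2.53 ± 0.14, -2.49 ± 0.25 and -2.06 ± 0.32, and the receptors Tgfbr3 and Tgfbr2 by -2.67 ± 0.13 and -2.09 ± 0.10. Fstl1, a secreted antagonist, was lower by -2.90 ± 0.13. Bmp7, a ligand of epithelia, was at 10.84, 10.40 and 10.83 in FVF- and at 12.37, 12.41 and 12.32 in FVF+ cells (1.68 ± 0.13, limma adjusted p = 3.9e-09), and Id2, a target of BMP signals, was higher by 1.0 ± 0.15. Id3, a related target, was not called (-0.26 ± 0.21, adjusted p = 0.358).

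In the basement membrane, the sorts differed by chain. Of 25 genes, 5 were called higher and 17 lower (median -1.0). Nid1 and Nid2, the nidogens that link laminin to collagen IV, were lower in FVF+ by -3.90 ± 0.35 and -3.60 ± 0.27, Lama4, the laminin chain of vessels, by -3.49 ± 0.26 and Col4a1 by -1.66 ± 0.17. Lama5, the chain of epithelial basement membranes, was at 9.73, 10.24 and 10.64 in FVF- and at 11.12, 11.59 and 11.24 in FVF+ cells (1.11 ± 0.18, limma adjusted p = 4.6e-05), while Lama1 was lower by -0.84 ± 0.12. Of the receptors, Itgb6, Itga6 and Itgb4, subunits of epithelial integrins, were higher by 2.23 ± 0.21, 1.73 ± 0.19 and 1.32 ± 0.16, and Itga8, a mesenchymal subunit, was lower by -3.01 ± 0.33. Lamc1, a chain shared by most laminins, was not called (0.18 ± 0.13, adjusted p = 0.313). Itga3 (-0.34 ± 0.17, adjusted p = 0.109) was called lower without FVF+ replicate 2 (-0.57, adjusted p = 0.00347).

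Cell cycle genes differed by little. Of 30 measured, 14 were called higher and 3 lower (median 0.37), and after cyclic loess normalization 11 were called higher and 6 lower. Bub1, a spindle checkpoint kinase, was at 9.45, 10.04 and 10.29 in FVF- and at 11.40, 10.22 and 11.41 in FVF+ cells (1.08 ± 0.26, limma adjusted p = 0.00212), and Kif11, a spindle motor, was higher by 0.97 ± 0.24. In both genes FVF+ replicate 2 lay within the FVF- range and the other two FVF+ arrays above it. Mki67, a proliferation marker, was at 11.00, 11.73 and 11.88 in FVF- and at 12.30, 11.58 and 12.45 in FVF+ cells (0.57 ± 0.21, adjusted p = 0.036), and its call was lost without FVF- replicate 1 (adjusted p = 0.243), FVF+ replicate 1 (0.135) or FVF+ replicate 3 (0.186). The list mean was 11.15, 11.24 and 11.39 in FVF- and 11.61, 11.27 and 11.63 in FVF+ cells. What sets FVF+ replicate 2 apart here was not tested.

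The inhibitors of the cycle were on both sides. Cdkn1c, the imprinted inhibitor p57, was at 13.61, 13.20 and 13.43 in FVF- and at 11.23, 11.33 and 11.21 in FVF+ cells (-2.16 ± 0.13, limma adjusted p = 2.8e-10). Cdkn1b, the inhibitor p27, was higher by 0.70 ± 0.11, and the cyclin Ccne1 was lower by -0.82 ± 0.13. Mcm2, a replication licensing subunit, was not called (-0.13 ± 0.09, adjusted p = 0.281), but was called lower after cyclic loess normalization (-0.24, adjusted p = 0.0143).

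Protein secretion genes of the endoplasmic reticulum were higher in 21 of 28 cases and lower in 2, with a median of 0.43. After cyclic loess normalization 16 were called higher and 3 lower. Pdia2, a disulfide isomerase of the pancreas, was at 6.73, 6.80 and 8.0 in FVF- and at 9.30, 10.73 and 9.25 in FVF+ cells (2.58 ± 0.34, limma adjusted p = 4.9e-06), Edem1, which directs misfolded glycoproteins to degradation, was higher by 1.79 ± 0.12, Dnajc3 by 1.30 ± 0.19 and Spcs3, a signal peptidase subunit, by 1.28 ± 0.15. Kdelr3, a retrieval receptor, was at 12.14, 11.70 and 11.58 in FVF- and at 9.29, 9.60 and 8.95 in FVF+ cells (-2.53 ± 0.19, adjusted p = 4.1e-09). The chaperone Hspa5 (0.22 ± 0.10, adjusted p = 0.0928) and Sec61a1 (0.14 ± 0.08, adjusted p = 0.147) were not called, although Hspa5 was without FVF+ replicate 2 (0.31, adjusted p = 0.0224) and Sec61a1 without FVF- replicate 1 (0.21, adjusted p = 0.0478).

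Immediate early and heat shock genes, which respond to handling as well as to signals, were called lower in 6 of 22 cases and higher in 2 (median -0.43). Of all genes, 21.5% were called lower and 23.1% higher, so the share called lower was near the background. Klf4, Dusp1, Socs3 and Klf6 were lower in FVF+ by -1.75 ± 0.17, -1.72 ± 0.40, -1.44 ± 0.14 and -1.16 ± 0.20. Btg2, an antiproliferative gene that Neurog3-positive cells express, was at 9.86, 10.50 and 10.05 in FVF- and at 11.83, 11.99 and 11.52 in FVF+ cells (1.64 ± 0.28, limma adjusted p = 9.0e-05), and Hsph1 was higher by 0.55 ± 0.12. Fos was not called (-0.27 ± 0.61, adjusted p = 0.770), nor was Jun (-0.42 ± 0.22, adjusted p = 0.149). Atf3 was not called either (-0.91 ± 0.51, adjusted p = 0.171), although its arrays did not overlap. A fit to the E14.5 arrays alone called 13 lower and 3 higher. Among those lower were Jun (limma adjusted p = 0.0375), Atf3 (adjusted p = 8.4e-04) and Nr4a1 (-0.72, adjusted p = 0.00492).

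The E14.5 difference was then set against the mean of the same difference on E12.5, E13.5 and E15.5, by the same model. At this contrast 702 genes were called (3.64%), 290 with a difference that was larger toward FVF+ (1.5%) and 412 smaller, that is further toward FVF- (2.14%). The count was sensitive to single arrays: it was 372 without FVF+ replicate 1 of E14.5, 1264 without replicate 2 and 371 without replicate 3. FVF- arrays moved it as well. It was 493 without FVF- replicate 2 of E14.5, 479 without FVF- replicate 1 of E12.5 and 1045 without FVF- replicate 1 of E13.5. Of the 11 hormone genes, 9 were called larger, as were 9 of 31 acinar genes, 5 of 21 endocrine factors, 5 of 18 granule genes and 4 of 12 glucose sensing genes. Of the 36 connective tissue genes 8 were called smaller, and of 30 Wnt genes 6.

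The 8 largest called differences of this kind in each direction are given next. Against E15.5 alone, only Try10 (2.01 ± 0.49, limma adjusted p = 0.0324) and Alas2 (-1.14 ± 0.21, adjusted p = 0.00834) among these genes were called. The Try10 difference was 4.83 at E14.5 and 2.82 at E15.5. Its FVF+ mean was no lower on the later day (11.6 at E14.5, 12.08 at E15.5). Its FVF- mean rose from 6.77 ± 0.31 (SD) to 9.26 ± 0.94. The E14.5 differences of the trypsinogens Try10 and Prss3 exceeded the mean of the other days by 2.92 ± 0.41 (limma adjusted p = 0.00103) and 2.35 ± 0.22 (adjusted p = 4.5e-05). The 2 genes may share signal as near-identical copies. The E14.5 difference of Prss3 was 3.70, against -0.09 at E12.5, 0.42 at E13.5 and 3.71 at E15.5. Ins2 went from 0.82 and 1.20 to 3.81, with 3.06 at E15.5, and Sst from -0.01 and 0.50 to 3.67, with 4.59 at E15.5. For these genes the E14.5 difference was closer to that of the later day than to those of the earlier days.

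Cym, the chymosin gene, was larger by 1.84 ± 0.38 and Scgn by 1.80 ± 0.37. The differences of Cym and Scgn were 3.96 and 5.44 at E14.5, and 3.27 and 5.25 at E15.5. Clca3a1 and Clca3a2, which are neighbouring copies of a calcium-activated chloride channel regulator and may share probes, were larger by 2.13 ± 0.38 and 1.83 ± 0.31. Both turned direction: Clca3a1 was lower in FVF+ at E12.5 and E13.5 (-2.01 and -1.49) and higher at E14.5 and E15.5 (1.32 and 1.07), and Clca3a2 went from -0.96 and -0.95 to 1.77 and 1.71.

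On the other side, Cd74, the invariant chain of antigen presentation, was smaller by -1.93 ± 0.30, with differences of -0.47, -0.56, -3.27 and -3.01 from E12.5 to E15.5. In FVF- cells it was at 7.04 ± 0.06 (SD, n = 2) at E12.5, 7.32 ± 0.01 (n = 2) at E13.5 and 9.82 ± 0.85 (n = 3) at E14.5. Alas2 was smaller by -1.92 ± 0.18, and its difference was widest at E14.5, at -4.36 against -1.60, -2.51 and -3.22. Agtr2, an angiotensin receptor of fetal mesenchyme, was smaller by -1.80 ± 0.40 (limma adjusted p = 0.0167). Efemp1, a matrix protein, was smaller by -1.5 ± 0.23 and Osr2 by -1.48 ± 0.32 (limma adjusted p = 0.0145). The differences of Agtr2, Efemp1 and Osr2 were -4.21, -2.59 and -4.51 at E14.5, and -4.45, -2.17 and -3.64 at E15.5. Against E13.5 alone, Agtr2 (-1.99 ± 0.53, limma adjusted p = 0.0532) and Osr2 (-0.99 ± 0.42, adjusted p = 0.262) were not called. Their E13.5 FVF- arrays were uneven, with SDs of 1.42 and 0.95 (n = 2). At E12.5 their differences were -0.55 and -1.93. The calls of Agtr2 and Osr2 were lost without FVF+ replicate 3 (adjusted p = 0.0666 and 0.0589), and that of Agtr2 also without FVF- replicate 2 (0.0586).

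Rtn1, a reticulon, and Pltp, a phospholipid transfer protein, had differences of opposite sign on the earlier and later days. Rtn1 had a difference of 0.38 at E13.5 and of -1.47 at E14.5 (difference from the other days -1.65 ± 0.18, limma adjusted p = 1.5e-04), and Pltp went from 0.65 and 0.50 to -1.89 and -2.23 (-1.53 ± 0.17). Slc2a2 stayed higher in FVF+ but its difference shrank from 4.41 and 4.04 to 2.07 at E14.5 and 2.55 at E15.5 (-1.59 ± 0.27). Its FVF+ mean was 11.69 ± 0.09 (SD, n = 3) at E12.5 and 9.42 ± 0.37 (n = 3) at E14.5.

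**Figure D5:**
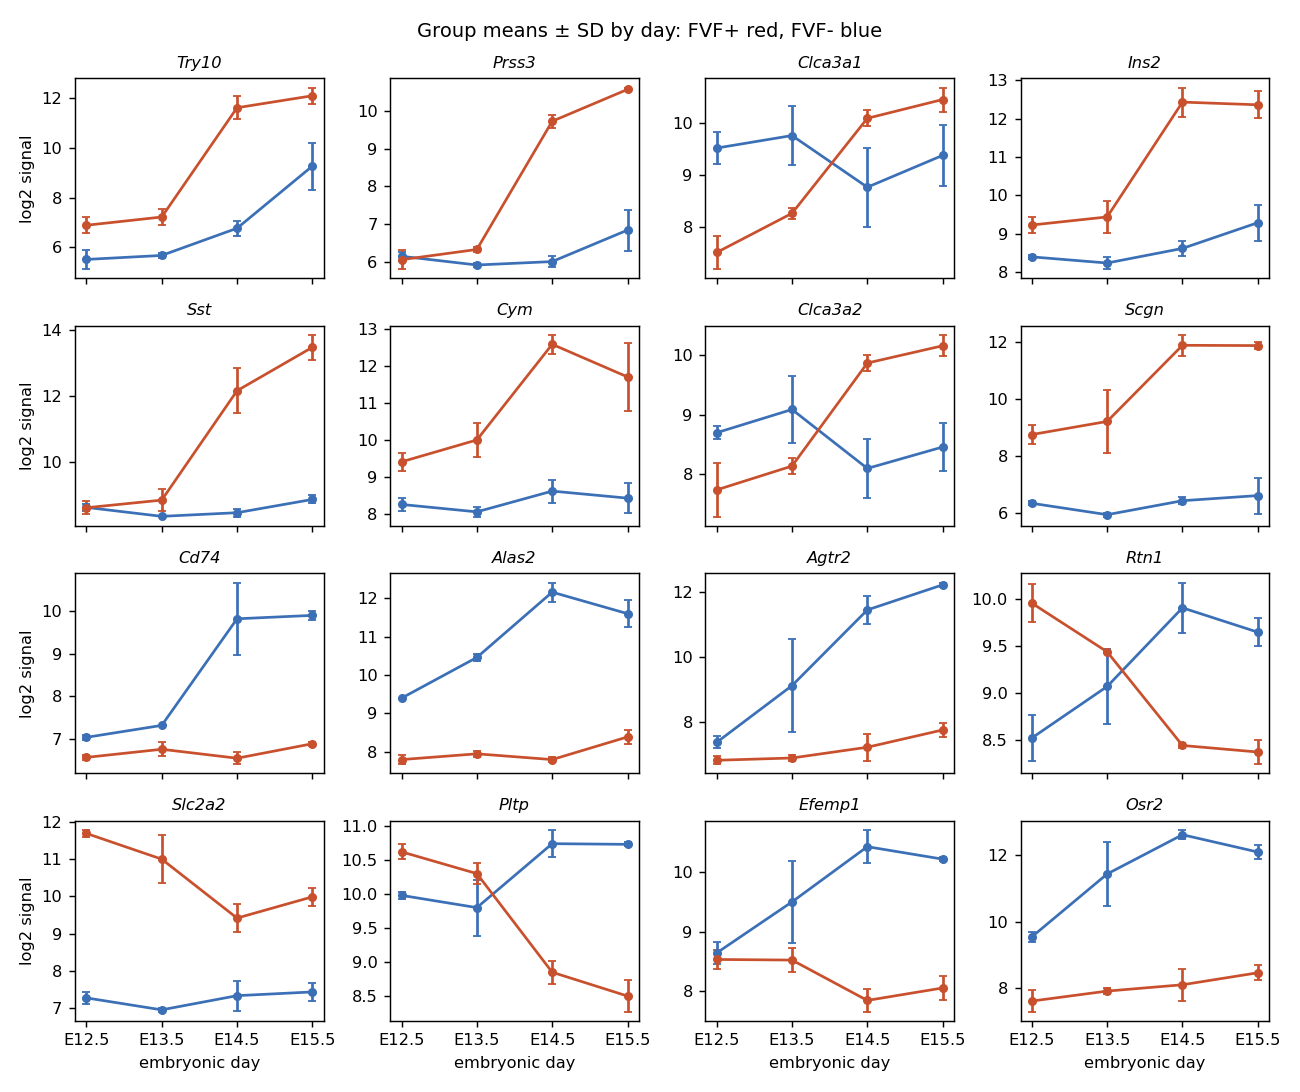
Mean log2 RMA signal with SD (y axes, scaled per gene) by embryonic day (x axis) in FVF+ (red) and FVF- cells (blue), 2 or 3 arrays per point. The 16 genes are those named for the contrast of E14.5 with the mean of the other days. Prss3, Ins2 and Sst are higher in FVF+ cells at E14.5 than at E13.5, Cd74 is higher in FVF- cells, the sorts are already apart in Agtr2 at E13.5 (-2.22), and the lines of Clca3a1, Clca3a2, Rtn1 and Pltp cross.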

How the data were processed

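RNA of 21 sorted samples was measured on Affymetrix arrays. The deposited log2 values come from RMA, run by the authors in affy 1.44.0 per the submitters' processing notes, and were not changed. Building and filtering of probe sets are not given in the sources consulted. Precision is limited by the number of arrays. The platform annotation gave 1 symbol to 20728 of 23305 probe sets. For 804 genes with several, the brightest over all arrays was used.

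One mean per group, 8 in all, was estimated from the 21 arrays with limma 3.58.1 in R 4.3.3 (13 residual degrees of freedom), with two-sided p-values adjusted by Benjamini and Hochberg over 19296 genes and a call at an adjusted p under 0.05. Other days entered only through the shared spread and the contrast with them. The steps were tested on simulated data. Replicate numbers were not used as pairs: the deviations of same-numbered E14.5 arrays correlated at -0.37, -0.22 and 0.49.

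The comparison and its 30 gene lists were chosen with earlier results of these data known. Named genes are Foxa2, the 15 largest called differences in each direction without overlap of arrays and passing over predicted genes, and from each list its main markers, at most 4 members called in each direction and at most 2 not called. For the contrast with the other days they are the 8 largest called in each direction. List genes without a probe set of a single symbol were not analysed here. Alternatives were all probe sets, the mean of probe sets, a filter on dim genes, 3 normalizations, trend with robust moderation, array weights, replicate blocks, fits to fewer arrays and leaving out each array. Leaving out 2 pairs of E14.5 arrays was added after seeing the data.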

Additional observations from a re-analysis of the deposited data

Results flagged for a closer look

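By limma's test, the difference between FVF+ and FVF- cells at E14.5 was itself unlike the mean difference on the other 3 days in 702 genes. The 16 listed here are the 8 largest in each direction, passing over predicted genes. Against E15.5 alone, only Try10 and Alas2 among them were called. The difference was larger at E14.5 for Try10 (2.92), Prss3 (2.35), Clca3a1 (2.13), Ins2 (2.12), Sst (1.98), Cym (1.84), Clca3a2 (1.83) and Scgn (1.80). It was smaller, or further toward FVF-, for Cd74 (-1.93), Alas2 (-1.92), Agtr2 (-1.80), Rtn1 (-1.65), Slc2a2 (-1.59), Pltp (-1.53), Efemp1 (-1.50) and Osr2 (-1.48).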

How the results depend on the processing

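The count of genes called between the sorts at E14.5 stayed within 1.5 times its value under every setting run, from 7530 to 8850 when single arrays were left out. The count for the contrast with the other days, 702, rose to 1693 with array weights and to 1939 without FVF- replicate 3 and FVF+ replicate 2, and lay between 371 and 1264 when single arrays were left out, the extremes being FVF+ replicates 3 and 2. With the replicate number as a block the counts were 8275 and 474, and in a fit to the E14.5 arrays alone 7249 without the block and 6508 with it. The labels do not say that numbers pair samples, and of the 3 same-numbered pairs only replicates 3 had deviations with a positive correlation, at 0.49. The causes of these shifts were not tested. Of 252 named genes called at E14.5, 234 stayed called in every setting run in which they were tested and 18 were lost in at least 1, none with a change of direction: Cnn1, Mki67, Cenpf, Id1, Dll4, Mafa, Mcm3, Acvr2a, Gata1, Kif11, Top2a, Bub1, Fgfr3, Gfra1, Runx1t1, Sox11, Ddit3 and Hspa1a. Of the named genes that were not called, 20 were called in at least 1 setting. Of 16 genes named for the contrast with the other days, 14 stayed called. The 3 normalizations moved the median difference of all genes from 0.00 to at most 0.03, the value after median centring. Among the 11407 genes kept by the filter on dim genes, the median was 0.08. Low signals, such as those of Foxa1, Cftr, Mcpt4, Cdx2, Cdh17, Cuzd1, Dmbt1, Cd14, Cd163 or Cyp26a1, limit what could be seen.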
